A study of Homo sapiens with 4 samples.

Results

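The microRNA processing and silencing machinery was followed at the RNA level in U87MG glioma cells, an established human line, that had been given an expression plasmid for the microRNA miR-490. The members were DROSHA, DGCR8, XPO5, DICER1, TARBP2, AGO1, AGO2, AGO3, AGO4 and TNRC6A. They were taken as every probe set of the array whose platform annotation names exactly 1 gene, that gene being one of these 10, which gave 10 of 18132 annotated genes and 31 of 49293 probe sets. One further probe set, annotated to both AGO1 and AGO3, fell outside that rule and is given separately. Of the 4 arrays, 2 were from cells with the miR-490 vector PC-490 and 2 from cells with its control vector PCDNA, all in the same cell line and harvested 48 h after transfection. Both groups carried a plasmid. Nothing in the labels says that the replicates were separate cultures, so the p values reflect the spread between these 4 samples alone and that spread may be technical. As in any bulk sample, fewer cells with a transcript and less of it per cell cannot be told apart.

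MicroRNAs are cut from long transcripts in steps. In the nucleus the Microprocessor, made of the ribonuclease DROSHA and its RNA-binding partner DGCR8, releases a hairpin, which XPO5 (Exportin-5) carries to the cytoplasm. There DICER1, with its partner TARBP2, removes the loop, and 1 strand of the duplex is loaded into an Argonaute protein (AGO1 to AGO4). TNRC6A, a GW182 protein, binds Argonaute and recruits the deadenylases that shorten the target's poly(A) tail. AGO2 is the Argonaute known for slicing fully paired targets in mammalian cells.

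The substrate of these steps is shown by the sequence of the MIR490 hairpin from RefSeq (GRCh38.p14, plus strand), in which the capitals mark the mature strands, miR-490-5p first and miR-490-3p second. The hairpin lies at chr7:136903167-136903294.

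MIR490 hairpin: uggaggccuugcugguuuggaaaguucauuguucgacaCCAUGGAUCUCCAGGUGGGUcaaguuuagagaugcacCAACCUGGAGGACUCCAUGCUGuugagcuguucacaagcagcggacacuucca

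The 2 mature strands, miR-490-3p at chr7:136903242-136903263 and miR-490-5p at chr7:136903205-136903224, follow 5′ to 3′, with the seed, bases 2 to 8, in capitals. Each seed belonged to 1 of the 2370 mature names in the RefSeq table, so no other listed microRNA shares it.

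hsa-miR-490-3p: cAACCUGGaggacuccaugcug

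hsa-miR-490-5p: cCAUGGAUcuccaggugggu

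The RefSeq annotation places microRNA genes inside 2 members, MIR3618 and MIR1306 in DGCR8 and MIR3173 in DICER1. The DGCR8 messenger RNA is known to carry hairpins that DROSHA and DGCR8 cut. The mature sequences of MIR3618 and MIR1306 are shown, with the seed in capitals, because they lie in the member with that known feedback (GRCh38.p14, plus strand). They lie at chr22:20085797-20085818 (miR-3618), chr22:20086072-20086093 (miR-1306-5p) and chr22:20086112-20086129 (miR-1306-3p).

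hsa-miR-3618: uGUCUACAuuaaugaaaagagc

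hsa-miR-1306-5p: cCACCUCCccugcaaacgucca

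hsa-miR-1306-3p: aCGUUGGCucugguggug

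Each probe set has a deposited log2 expression value from RMA (robust multi-array average, which evens out the arrays). The array medians were 5.16 and 5.17 in the miR-490 arrays and 5.15 and 5.16 in the control arrays, and pairs of arrays correlated at r = 0.9975 to 0.9979 across probe sets. Of the glial and mesenchymal markers, VIM, FN1, CD44 and CHI3L1 were above the upper quartile level of all probe sets, GFAP was just above the median at 5.68 with miR-490 and 5.75 in controls, and NES and S100B were below it. All 6 epithelial markers were below the median, as was the pan-leukocyte marker PTPRC at 2.46 with miR-490 and 2.62 in controls. Each marker was read by its brightest probe set. The log2 levels of the 5 measured leukocyte markers summed to 21.4 with miR-490 and 22.2 in controls, and CD68 was the 1 of them above the median. Such a sum of log2 values is not a total level. Of the endothelial markers 2 of 5 were above the median (KDR and VWF), and the log2 levels of all 5 summed to 22.4 with miR-490 and 22.1 in controls. Of the neuronal markers 3 of 5 were above the median (TUBB3, SNAP25 and GRIN1), and the log2 levels of all 5 summed to 31.0 with miR-490 and 31.1 in controls.

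No member transcript differed between the vectors after adjustment over all probe sets. The fit used limma, and p was adjusted by the Benjamini-Hochberg method. An adjusted p under 0.05 was reached by 0 of the 31 member probe sets and by 0% of all 49293, and the members' adjusted p values ran from 0.900 to 1.00. By an unadjusted p under 0.05 (limma) there were 3 member probe sets (9.68%), 1 higher with miR-490 (AGO1) and 2 lower (1 each of DROSHA and XPO5). Over all probe sets that level was reached by 5.15%, with 2.66% higher and 2.48% lower. Member means were higher with miR-490 in 17 probe sets, lower in 13 and equal in 1, with a median log2 fold change of 0.005 beside 0.00 over all probe sets. The median size of the difference, whatever its sign, was 0.050 for the members and 0.070 over all.

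The groups did not overlap in 8 of the 31 member probe sets, 4 higher and 4 lower, which is 25.8%. Over all probe sets the groups did not overlap in 31.2%, with 15.6% higher and 15.6% lower, so the members' share was near the background. In 24 of the 31 the difference between the group means was no larger than the wider gap between 2 replicates, which is 77.4% beside 78.3% of all probe sets. The 95% interval of the fold lay within 1.5-fold either way in 29 of the 31, which is 93.5% beside 94.5% of all probe sets. The exceptions were 1 dim probe set each of AGO3 and TNRC6A. With 2 arrays against 2, the smallest two-sided exact permutation p for 1 probe set is 0.333, so only the fit across all probe sets can give a smaller one.

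**Figure D1:**
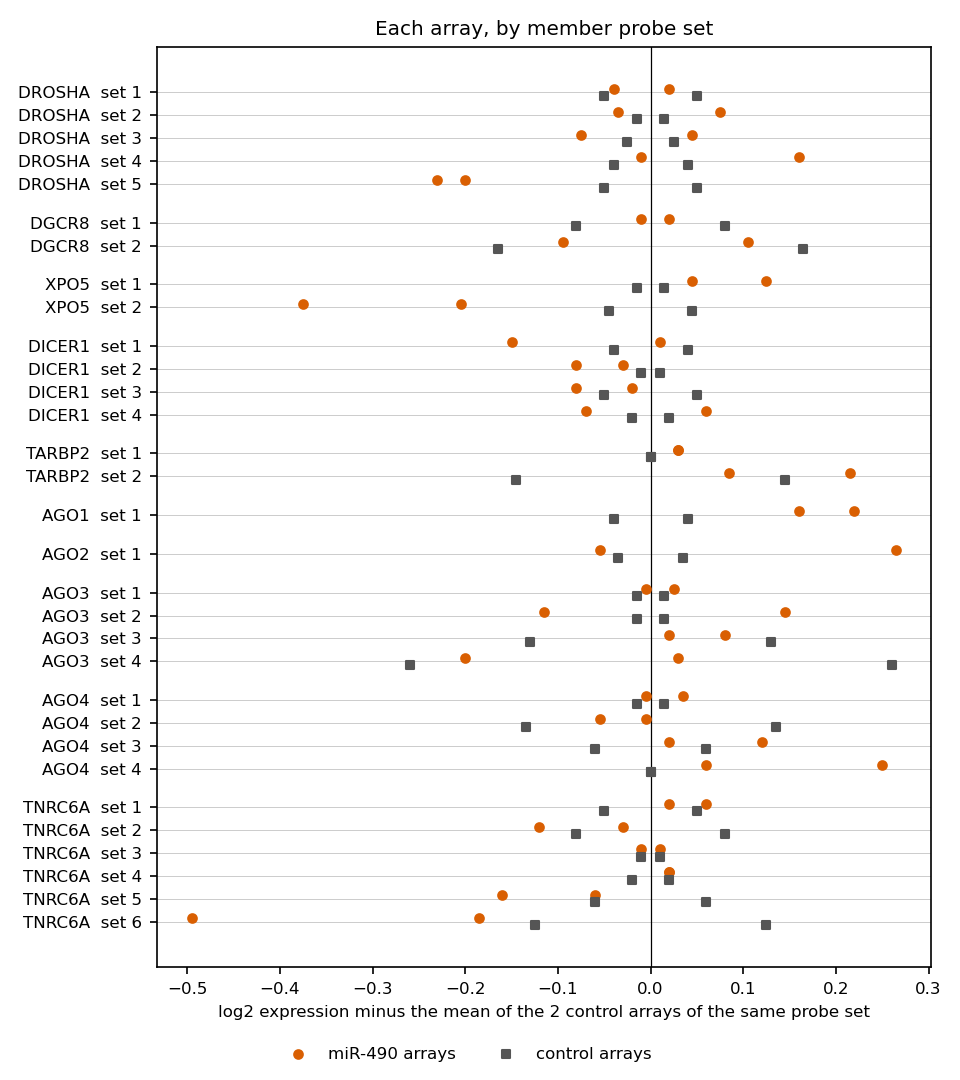
Log2 expression of each array minus the mean of the 2 control arrays (x axis), for each of the 31 member probe sets (rows, numbered within a gene from the highest mean level down); orange circles are miR-490 arrays and grey squares control arrays. The miR-490 points stand apart from the controls in 8 rows, on the right for XPO5 set 1, TARBP2 set 1, AGO1 and AGO4 set 4 and on the left for DROSHA set 5, XPO5 set 2, DICER1 set 2 and TNRC6A set 6.

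The nuclear steps came first. DROSHA, the ribonuclease that cuts the primary transcript, was measured by 5 probe sets, numbered here from the highest mean level to the lowest. Set 1 read 9.37 and 9.43 with miR-490 and 9.46 and 9.36 in controls (log2), so the groups overlapped. Sets 2, 3 and 4 also overlapped, with log2 fold changes of 0.02, -0.015 and 0.075. Their 95% intervals and that of set 1 together spanned folds of 0.862 to 1.24. Set 5, far dimmer, read 3.36 and 3.39 with miR-490 and 3.54 and 3.64 in controls. Both miR-490 arrays were below both controls there, at 0.862 of the control level (95% interval 0.756 to 0.982; limma, unadjusted p = 0.0327, adjusted p = 0.900). Its unadjusted p (limma) was 0.0220 after quantile normalisation, 0.0266 after median centring and 0.0460 with the replicate number as a block. Its unadjusted p was 0.0841 with an intensity trend and 0.0918 with a robust prior added. It was 0.120 and 0.0922 without miR-490 replicates 1 and 2, and 0.0302 and 0.0788 without control replicates 1 and 2. The 4 brighter sets of the same gene showed no such gap.

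DGCR8, which recognises the hairpin for DROSHA, had 2 probe sets and the smallest differences of any member with more than 1 set. The brighter read 7.28 and 7.25 with miR-490 and 7.18 and 7.34 in controls, and the dimmer 3.01 and 2.81 with miR-490 and 3.07 and 2.74 in controls. In both sets the miR-490 arrays lay between the control arrays. The log2 fold change was 0.005 in each, with 95% intervals of -0.21 to 0.22 and -0.36 to 0.37.

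XPO5, the export carrier of the hairpin, was the member whose probe sets pointed in opposite directions with no overlap of the groups. Set 1 read 6.29 and 6.37 with miR-490 and 6.23 and 6.26 in controls, a fold of 1.06 (95% interval 0.936 to 1.20; limma, adjusted p = 0.936). Set 2 read 4.83 and 4.66 with miR-490 and 4.99 and 5.08 in controls, a fold of 0.818 (0.696 to 0.961; limma, unadjusted p = 0.0245, adjusted p = 0.900). Set 2 had the smallest unadjusted p of any member, while set 1 was the brighter one. Set 1 minus set 2 was 1.46 and 1.71 on the log2 scale with miR-490 and 1.24 and 1.18 in controls, a shift of 0.375. The average over both sets of XPO5 differed by -0.10 on the log2 scale (95% interval -0.25 to 0.050; limma, adjusted p = 0.920). For set 2 the unadjusted p (limma) was 0.0181 after quantile normalisation, 0.0220 after median centring and 0.0369 with an intensity trend. It was 0.0351 with a robust prior added and 0.0713 with the replicate number as a block. The unadjusted p of set 2 was 0.142 without control replicate 2, 0.105 without miR-490 replicate 2, 0.0805 without control replicate 1 and 0.0306 without miR-490 replicate 1.

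In the cytoplasm DICER1, which cuts the loop from the hairpin, had lower means with miR-490 in all 4 of its probe sets, by small amounts. The brightest read 7.19 and 7.03 with miR-490 and 7.14 and 7.22 in controls, a log2 fold change of -0.07. The other 3 had -0.055, -0.05 and -0.005. Set 2 was the 1 whose groups did not overlap, at 6.66 and 6.61 with miR-490 and 6.70 and 6.68 in controls. The gap between the nearest arrays of the 2 groups there was 0.02, the size of the gap between the control replicates. Adjusted p values for DICER1 ran from 0.963 to 0.996 (limma), and the 95% intervals spanned folds of 0.815 to 1.15. Probe sets of 1 gene read the same RNA on the same arrays, so their shared sign is not 4 independent observations. Without miR-490 replicate 2 the difference was negative in 2 of the 4 sets and positive in 2, with a median of -0.005. With any other array left out the median of the 4 sets was -0.08 to -0.035.

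TARBP2, the double-stranded RNA-binding partner of DICER1, had higher means in both probe sets. Set 1 read 7.80 in both miR-490 arrays and 7.77 in both controls, so the groups were apart by 0.03 with no spread at the 2 decimals deposited. The fit, which borrows spread from other probe sets, gave it a fold of 1.02 (95% interval 0.910 to 1.15; limma, adjusted p = 0.993). Set 2 read 5.05 and 4.92 with miR-490 and 4.69 and 4.98 in controls, a fold of 1.11 (0.891 to 1.38; limma, adjusted p = 0.936), and the groups overlapped.

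**Figure D2:**
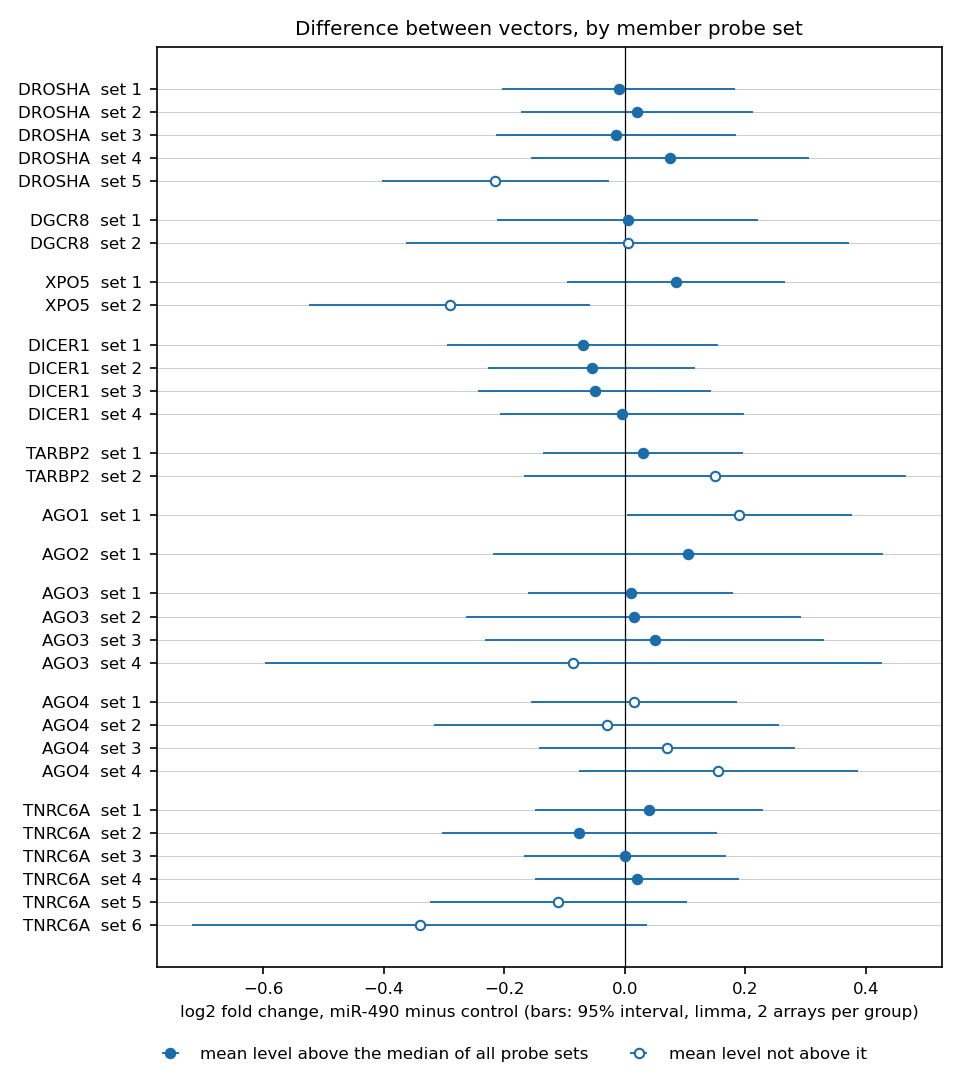
Log2 fold change of miR-490 over control (x axis) with its 95% interval from limma, for each of the 31 member probe sets (rows, numbered within a gene from the highest mean level down); filled points have a mean level above the median of all probe sets and open points do not. Intervals leave out 0 in 3 rows, DROSHA set 5, XPO5 set 2 and AGO1, all open points.

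The Argonautes hold the mature strand and pair it with its targets. AGO1 had 1 probe set of its own, which read 4.88 and 4.82 with miR-490 and 4.70 and 4.62 in controls. Both miR-490 arrays were above both controls, at 1.14 times the control level (95% interval 1.00 to 1.30; limma, unadjusted p = 0.0471, adjusted p = 0.900). The set annotated to AGO1 and AGO3 together lay the other way, at 6.91 and 6.90 with miR-490 and 7.07 and 6.99 in controls, a fold of 0.917 (0.810 to 1.04; limma, adjusted p = 0.903). That shared set cannot tell the 2 genes apart. The unadjusted p of the AGO1 set was 0.0779 after quantile normalisation, 0.0625 after centring on array medians and 0.104 with an intensity trend. With 1 array left out it ran from 0.0534 to 0.151.

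AGO2 also had 1 probe set, which read 5.96 and 5.64 with miR-490 and 5.66 and 5.73 in controls. The miR-490 replicates were 0.32 apart and lay on either side of the controls, so the fold of 1.08 had a 95% interval of 0.859 to 1.35 (limma, adjusted p = 0.963). Without miR-490 replicate 1 the log2 fold change was -0.055, and without miR-490 replicate 2 it was 0.265.

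AGO3 had 4 probe sets, and in none did the groups stand apart. The brightest read 7.26 and 7.23 with miR-490 and 7.22 and 7.25 in controls, a fold of 1.01 (95% interval 0.895 to 1.13). The dimmest, at 3.70 and 3.47 with miR-490 and 3.41 and 3.93 in controls, had replicates 0.52 apart in the controls and the widest interval among the members on the log2 scale, folds of 0.661 to 1.34. The other 2 had log2 fold changes of 0.015 and 0.05.

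AGO4 was dim in all 4 of its probe sets, which had mean levels of 2.93 to 4.89 beside a median of 5.16 over all probe sets. Its brightest set read 4.92 and 4.88 with miR-490 and 4.90 and 4.87 in controls. Its dimmest read 3.10 and 2.91 with miR-490 and 2.85 in both controls, a fold of 1.11 (95% interval 0.948 to 1.31; limma, adjusted p = 0.906). The groups stood apart in that set alone of the 4, and the middle sets had log2 fold changes of -0.03 and 0.07. AGO4, AGO1 and AGO3 are neighbours in that order on chromosome 1 in the RefSeq annotation, while AGO2 is on another chromosome. Of the 10 probe sets of the 4 Argonautes, 8 had higher means with miR-490 and 2 lower, with a median log2 fold change of 0.033 and 0 past the adjusted threshold (limma). Without miR-490 replicate 1 the split was 5 higher and 5 lower, with a median of 0.0075. Leaving out control replicate 2 gave a median of 0.1225.

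TNRC6A, the GW182 protein that links Argonaute to deadenylation, was measured by 6 probe sets, 4 bright and 2 near the lower end of the scale. The brightest read 9.06 and 9.02 with miR-490 and 8.95 and 9.05 in controls, a fold of 1.03 (95% interval 0.902 to 1.17). Set 2 read 8.67 and 8.58 with miR-490 and 8.78 and 8.62 in controls, a fold of 0.949 (0.811 to 1.11). Sets 3 and 4 had log2 fold changes of 0.00 and 0.02, and in all 4 bright sets the groups overlapped. Set 5, also dim, read 2.37 and 2.47 with miR-490 and 2.59 and 2.47 in controls. Its groups overlapped, with a log2 fold change of -0.11. The dimmest, set 6, read 1.90 and 2.21 with miR-490 and 2.27 and 2.52 in controls. The fold was 0.790, the largest difference of any member with all 4 arrays (0.608 to 1.03; limma, unadjusted p = 0.0679, adjusted p = 0.900). Replicates in set 6 were 0.31 apart with miR-490 and 0.25 apart in controls, and its mean level was at percentile 1.6 of all probe sets. The log2 fold change of set 6 was -0.34 with all arrays, -0.185 without miR-490 replicate 1 and -0.215 without control replicate 2, against -0.375 and -0.245 for XPO5 set 2 without the same arrays.

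The members' differences were smaller in the brighter probe sets. Among the 19 member probe sets above the median level, the largest difference was 0.105, the median size was 0.030 and 0 had an unadjusted p under 0.05 (limma; 0 by adjusted p). Among the 12 others the median size was 0.130 and 3 (25%) had an unadjusted p under 0.05 (limma). Over all probe sets, 2.60% of those above the median level and 7.69% of the others had an unadjusted p under 0.05. Over all probe sets the corresponding median sizes were 0.055 above the median level and 0.090 below it. The 4 largest member differences, of TNRC6A set 6, XPO5 set 2, DROSHA set 5 and AGO1, all came from probe sets below the median, and the part of low signal in them was not tested. For DROSHA, XPO5 and TNRC6A, brighter sets of the same gene did not show the difference.

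**Figure D3:**
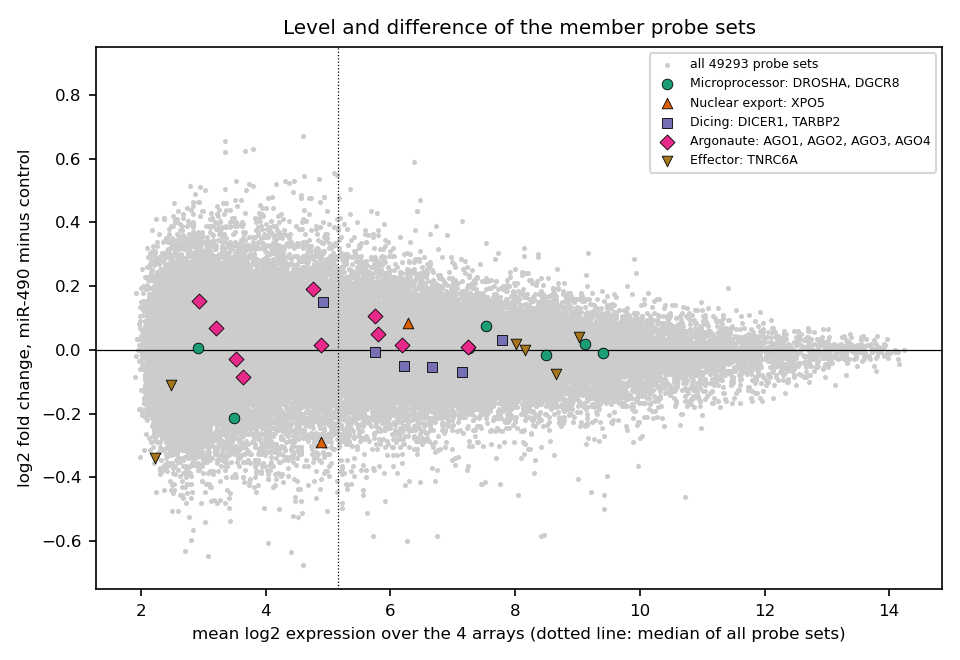
Log2 fold change of miR-490 over control (y axis) against the mean log2 expression over the 4 arrays (x axis); grey points are all 49293 probe sets, coloured symbols the 31 member probe sets by role, and the dotted line the median level of 5.16. Members to the right of the dotted line lie within 0.105 of 0, and the members farthest from 0 lie to its left.

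The wider pathway was read from 5 lists of 69 partner genes, of which 68 had single-gene probe sets, 237 in all. With limma 0 of the 237 had an adjusted p under 0.05 and 5 (2.11%) an unadjusted p under 0.05, 4 higher and 1 lower, beside 5.15% of all probe sets. Their median log2 fold change was 0.00.

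Cofactors of the Microprocessor and of export had 30 of 57 probe sets higher and 24 lower, and their median log2 fold change was 0.005. Those with the smallest p were DDX17, a helicase of the Microprocessor, at 1.14 times the control level, RAN, the GTPase that drives export, at 0.883, SRSF3, a splicing factor that aids hairpin recognition, at 1.16, and SAFB2, an RNA-binding protein, at 1.16. The other sets of DDX17 had log2 fold changes of 0.015 and 0.03 and those of RAN 0.005 to 0.02. All other SAFB2 sets were negative, at -0.105 to -0.055, and those of SRSF3 ran from -0.135 to 0.03. The named SRSF3 set was dim, with a mean level of 2.97.

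Cofactors of Dicer and of Argonaute loading had 8 of 37 probe sets higher and 27 lower, with a median of -0.045. Over all probe sets 49.7% were higher and 47.8% lower. With limma 0 of the 37 had an unadjusted p under 0.05 and 0 an adjusted p under 0.05. With 1 array left out, 22 to 27 of the 37 were lower and 9 to 13 higher, with medians of -0.06 to -0.02. TSN, a subunit of the nuclease C3PO, read 7.05 and 7.00 with miR-490 and 7.13 and 7.15 in controls, a fold of 0.923. All 4 TSN sets had log2 fold changes of -0.12 to -0.10 and groups that stood apart. Over all probe sets 15.6% stood apart with lower values. The smallest unadjusted p of the TSN sets was 0.144 (limma, adjusted p = 0.906). All 4 were also lower with any 1 array left out. They read the same RNA on the same arrays, so they are not 4 independent observations. PRKRA, the other double-stranded RNA-binding partner of Dicer, was at 0.930 of the control level, with its second set at -0.05. ADAR, the adenosine deaminase, was at 0.892 in a dim set and HSPA8, the loading chaperone, at 0.883 in another, with other sets on both sides of 0.

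Enzymes that tail or degrade microRNAs had 13 of 29 probe sets higher, 15 lower and a median of -0.015. TUT4, a terminal uridylyltransferase, read 4.60 and 4.54 with miR-490 and 4.36 and 3.97 in controls, a fold of 1.32 (limma, unadjusted p = 0.0391, adjusted p = 0.900). The log2 fold change of this TUT4 set was 0.405 with all arrays. It was 0.21 without control replicate 2 and 0.60 without control replicate 1. The mean level of the set was 4.37, below the median of all probe sets. TUT4 had 1 other set, with a log2 fold change of 0.14. Its relative TUT7 was at 0.868, with 0.035 in its other set. The exonucleases XRN1 and DIS3L2 were at 1.12 and 1.11, with other sets on both sides of 0. The named TUT7 and DIS3L2 sets were below the median level.

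The GW182 paralogs and other Argonaute partners had 29 of 39 probe sets higher, 10 lower and a median of 0.055, where all probe sets had 49.7% higher. Of the 29, TNRC6B alone gave 10, and the other 29 probe sets of the list had 19 higher and 10 lower. Without control replicate 2 these others had 14 higher and 15 lower. With any other array left out they had 15 to 19 higher and 9 to 13 lower. TNRC6B, the paralog of TNRC6A, had higher means in all 10 of its sets, with log2 fold changes of 0.06 to 0.245. The groups stood apart in 3 of the 10, beside 31.2% of all probe sets, and sets of 1 gene are not independent. The median of the TNRC6B sets was 0.1325 with all arrays. It was 0.0225 without miR-490 replicate 1, when 2 of the 10 were negative, and 0.05 without control replicate 1. It was 0.2075 without miR-490 replicate 2 and 0.185 without control replicate 2. Its set with the smallest p read 7.25 and 7.24 with miR-490 and 6.99 and 7.16 in controls, a fold of 1.13 (limma, adjusted p = 0.900). FMR1, an RNA-binding protein that associates with Argonaute, was at 1.16 in a set below the median level (limma, unadjusted p = 0.0310, adjusted p = 0.900). Its other sets had log2 fold changes of -0.15 to 0.12. WTIP was at 1.16 and TRIM71, dim on these arrays, at 1.15.

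The deadenylation and decapping effectors had 31 of 75 probe sets higher, 40 lower and a median of -0.01. CNOT3, a subunit of the CCR4-NOT deadenylase complex, read 5.55 and 5.58 with miR-490 and 5.10 and 5.18 in controls. That fold of 1.34 was the largest on the list and had the smallest p of any partner (limma, unadjusted p = 0.00203, adjusted p = 0.900). Its other 2 sets had log2 fold changes of -0.025 and 0.07. PATL1, a decapping activator, was at 0.886 in a dim set, and its other sets had log2 fold changes of -0.195 to 0.005. DCP1B, a decapping cofactor, was at 1.17, with a log2 fold change of 0.065 in its other set. EDC4, the decapping scaffold, was at 1.12 in a set below the median level, with log2 fold changes of 0.01 and 0.20 in its other sets.

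**Figure D4:**
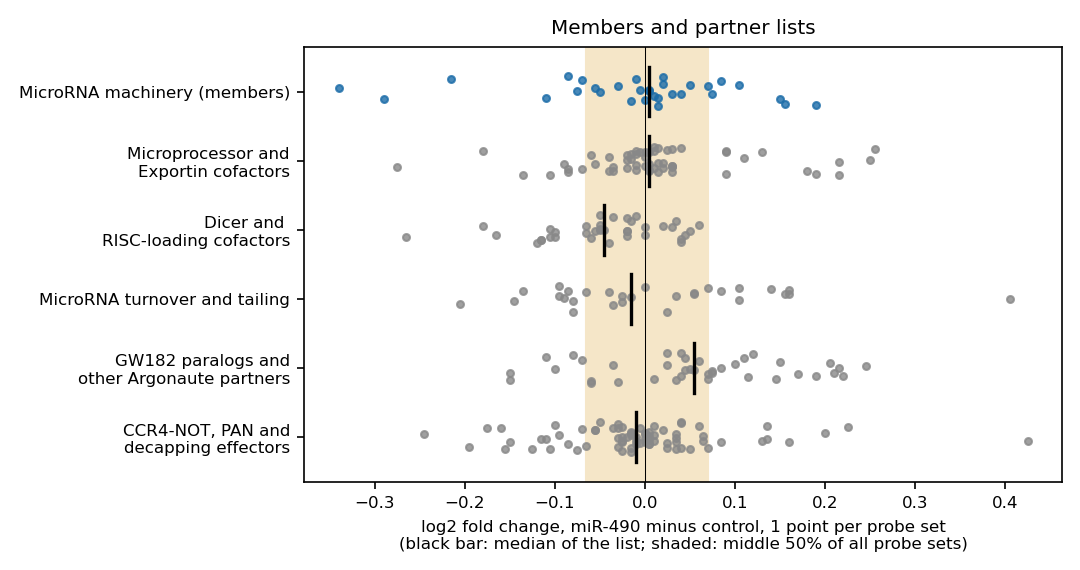
Log2 fold change of miR-490 over control (x axis) of each probe set of the 10 members (blue, top row) and of the 5 partner lists (grey); black bars are list medians and the shaded band holds the middle 50% of all probe sets. The list medians lie between -0.045 (Dicer and loading cofactors) and 0.055 (GW182 paralogs and other Argonaute partners).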

How the data were processed

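Total RNA, 100 ng per sample, was labelled with biotin and hybridised to PrimeView arrays, per the labels' protocols. The authors deposited log2 values for each probe set. These came from RMA, per the submitters' processing notes. Its software is not given in the sources used here, nor are its settings. RMA evens out the arrays, so a shift of most transcripts cannot be seen. The number of arrays limits the precision, and the median 95% interval over all probe sets reached 0.22 to either side of the log2 fold change.

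Groups came from the sample titles. Of 49293 probe sets, 44988 have 1 gene symbol, 1832 several and 2473 none in the platform annotation, and 44961 were matched to RefSeq by gene ID. All probe sets entered 1 fit in R 4.3.3 with limma 3.58.1 (lmFit, eBayes, two-sided, no block, 2 residual and 2.73 prior degrees of freedom). The p values were adjusted by Benjamini-Hochberg over all, and the unadjusted p values come from the same fit. The method was also run on simulated data. Recovery was required there only for differences far larger than those of the members, so power for small differences was not shown. The members and lists were chosen with earlier results of these data known. Named genes are all members and, of each partner list, the 4 with the smallest p, each by its set with the smallest p. Alternatives were quantile normalisation, median centring, an intensity trend, the same trend plus a robust prior, bright probe sets only, the replicate number as a block, each array left out, 1 probe set per gene and the mean of a gene's sets. The counts by direction with an array left out, and those of the Argonaute partners without TNRC6B, were chosen after seeing the data.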

Additional observations from a re-analysis of the deposited data

How the results depend on the processing

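No probe set passed the adjusted threshold in any alternative run (limma). Over these alternatives the smallest adjusted p of a member was 0.643. Of 318 values for member probe sets under the alternatives, 32 had the other sign, in 18 probe sets, none past the adjusted threshold. The run on the mean of a gene's sets gave 10 of these values, each counted under the gene's brightest set. For XPO5 set 1 such a mean, -0.1025, was the only value with the other sign. Of 196 values for named partners, where such means were counted in the same way, 1 had the other sign. Those partners were picked by small p in these same data, so the 2 counts cannot be compared. Member probe sets at an unadjusted p under 0.05 numbered 3 as reported, 2 after quantile normalisation, median centring or with the robust prior, 1 with an intensity trend and 0 of 19 with bright probe sets only. They numbered 1 of 10 genes with 1 probe set per gene or the mean of sets (AGO1 in both), and 0 to 1 with 1 array left out, where the single remaining array is taken to vary as the other group does. The corresponding partner counts were 5 as reported, 1 and 2 of 68 genes with those gene rules, and 2 to 19 with 1 array left out, highest without control replicate 2 (19), then without control replicate 1 (13). Over all probe sets the count was 2537 as reported, 1209 of 24637 bright ones, 1121 and 959 of 18132 genes with those gene rules, where fewer features were tested, and 1679 to 3048 with 1 array left out, highest without control replicate 2. Of all 49293 probe sets, 2549 reached that level after quantile normalisation and 2540 after median centring. With an intensity trend 2320 did, and with the robust prior 2301. The members' median log2 fold change was 0.0225 with 1 probe set per gene and -0.01 to 0.025 with 1 array left out. That of the partners was -0.01 after median centring and -0.015 to 0.01 with 1 array left out. The cause was not tested.

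The deviations of same-numbered arrays from their group means correlated at -0.0844 over all probe sets. That value showed no positive correlation between arrays of the same number. It cannot decide whether they were handled as pairs, because a shared effect small beside the spread between replicates could give a similar value. With the replicate number as a block, 2 of the 31 member probe sets had an unadjusted p under 0.05 (limma), DROSHA set 5 and TNRC6A set 6. That level was reached by 2 of the 237 partner probe sets and by 1936 (3.93%) of all 49293 probe sets. In the same fit 0 passed the adjusted threshold.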
